A study of Homo sapiens with 6 samples.

Results

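The genes described here were 34 enzymes and readers of protein acetylation, chosen by gene symbol: the 11 zinc-dependent histone deacetylases (HDACs), the 7 sirtuins, 10 lysine acetyltransferases, 4 subunits of N-terminal and RNA acetyltransferases, and the BET readers BRD2 and BRD3. All 34 were found among the 58735 genes of the deposited table. RNA-seq was carried out on 6 libraries of HGC-27, a cell line derived from a lymph node metastasis of an undifferentiated gastric carcinoma. The 3 shACAT2 libraries came from HGC-27 cells labelled ACAT2 knockdown that carried pSIH-H1-Puro-shACAT2, a plasmid in which the H1 promoter drives a short hairpin RNA against ACAT2, and the 3 shNC libraries from cells labelled WT that carried the control plasmid pSIH-H1-Puro-shNC. Both groups were selected with puromycin for 7 days, so the cells were selected populations of 1 line. Which of the study's hairpins the shACAT2 cells carried is not given in the labels.

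Acetyltransferases move an acetyl group from acetyl-CoA to lysine residues of histones and other proteins, deacetylases take it off again, and readers with bromodomains bind the acetylated lysine. The HDACs use a zinc ion for this reaction, whereas the sirtuins consume NAD. ACAT2 is the cytosolic thiolase that condenses acetyl-CoA into acetoacetyl-CoA at the entry to cholesterol synthesis, and the question was whether the transcripts of the acetylation machinery differ when it is depleted.

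Gene-assigned fragments numbered from 14086416 to 16067486 per library. The library shACAT2-3 stood apart in holding 7477 genes that had a fragment in no other library, against 416 to 657 such genes in each of the others. The chi-square per gene between shNC-2 and shNC-3 was 1.71, whereas for other pairs of libraries within a group it was 10.8 to 39.3. ACAT2 itself was measured in FPKM (fragments per kilobase of gene length, divided by a factor set for each library). It was at 14.2, 11.7 and 12.7 FPKM in shNC-1, shNC-2 and shNC-3, and at 6.19, 5.46 and 6.05 FPKM in shACAT2-1, shACAT2-2 and shACAT2-3. It was lower in all 3 shACAT2 libraries, with a log2 fold change of −1.01 (limma, Benjamini-Hochberg adjusted p = 0.00594), although 33.9% of its exonic length is shared with SOD2-OT1 on the opposite strand and 26.5% with SOD2. Without shNC-3 its log2 fold change was −1.01 with a limma adjusted p of 0.0512. The 6 epithelial and 8 gastric markers all lay under the filter on low values in this line, with TFF1, GKN1 and PGC at 0 in every library. The epithelial markers nevertheless summed to 0.505 to 0.863 FPKM in shNC and 1.44 to 2.36 FPKM in shACAT2, and the gastric markers to 0.433 to 0.498 and 0.264 to 0.688 FPKM. Of the epithelial markers only CDH1 lay apart between the groups, at 0.12 to 0.22 FPKM in shNC and 0.61 to 1.15 FPKM in shACAT2. KRT8 overlapped (0.385 to 0.608 and 0.516 to 0.785 FPKM), and EPCAM, KRT18, KRT19 and KRT20 were at most 0.212 FPKM. The highest epithelial and gastric sums were both in shACAT2-3. The sum of 5 fibroblast markers was 104 to 108 FPKM in shNC and 180 to 201 FPKM in shACAT2, most of it from COL1A1, while PDGFRA of the same list was at 2.26 to 2.62 FPKM in shNC and 1.35 to 1.70 FPKM in shACAT2. The 3 mesenchymal markers summed to 248 to 294 FPKM in shNC and 343 to 463 FPKM in shACAT2, nearly all of it from vimentin. FN1 of the same list overlapped between the groups (1.81 to 2.15 and 2.04 to 2.42 FPKM), and CDH2 was at most 0.0808 FPKM. The 5 immune markers summed to at most 1.85 FPKM in any library and the 3 endothelial markers to at most 0.373 FPKM. In such bulk libraries fewer cells of a type and less RNA per cell cannot be told apart, and the part of these differences in the values of the acetylation genes was not tested.

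All 34 acetylation genes were detected in every library, over a wide range of levels. In shNC cells 12 of them had a mean above 10 FPKM, and in shACAT2 cells 13. The highest were the RNA acetyltransferase NAT10 (39.6 ± 3.20 FPKM in shNC, SD, n = 3), HDAC1 (38.0 ± 2.84 FPKM), BRD2 (37.9 ± 1.50 FPKM) and KAT2A (33.6 ± 2.63 FPKM), and NAT10, HDAC1 and BRD2 differed from each other by less than the SDs of NAT10 and HDAC1. These 4 genes gave 40.0% to 42.9% of the summed FPKM of the 34 in the shNC libraries and 36.3% to 40.5% in the shACAT2 libraries. The lowest were HDAC10 (0.414 ± 0.106 FPKM), HDAC8 (0.780 ± 0.0437 FPKM) and SIRT4 (0.840 ± 0.191 FPKM). The sum over all 34 genes was 362 ± 10.7 FPKM in shNC and 353 ± 18.4 FPKM in shACAT2 (SD, n = 3 each), and the ranges of the groups overlapped. FPKM divides by the length of all annotated exons of a gene, which was 15461 bases for HDAC2 and 22986 bases for HDAC8, and which of these exons the cells use was not measured here.

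**Figure D1:**
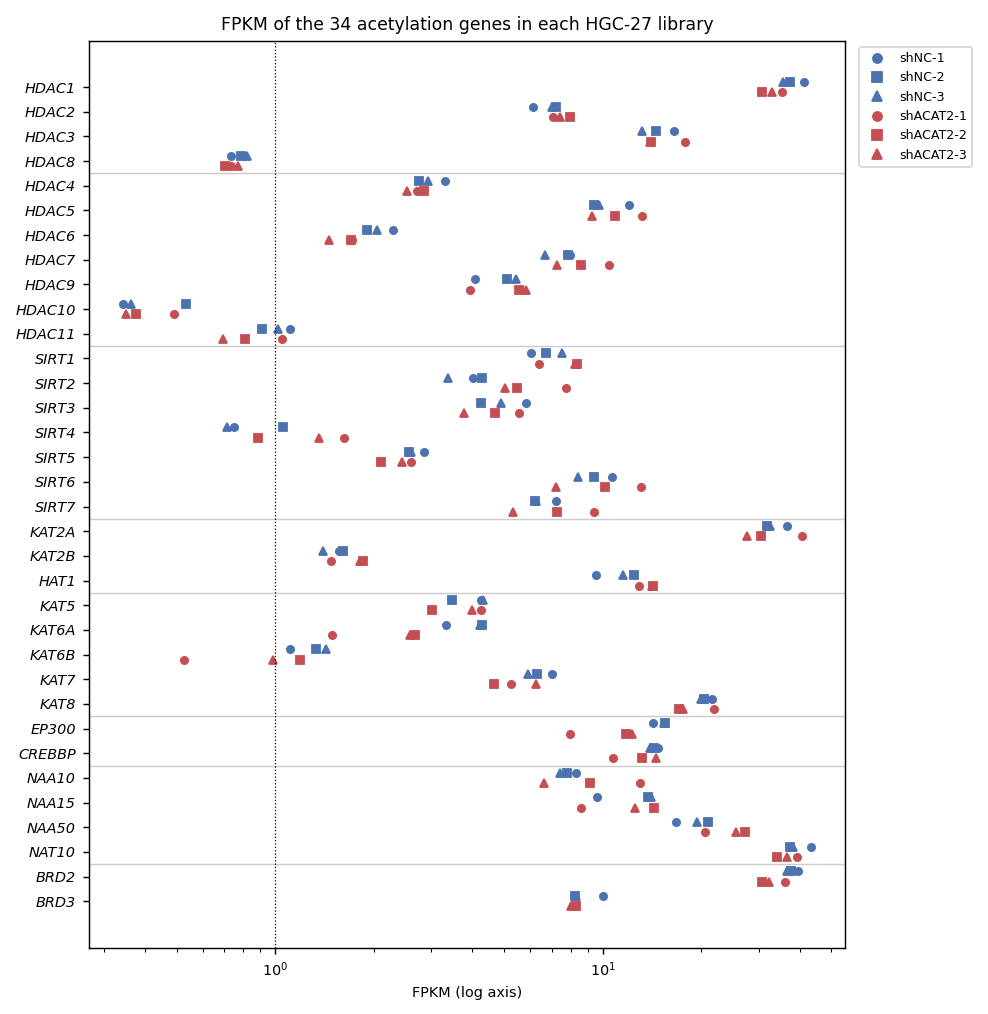
FPKM (log axis) of the 34 acetylation genes, with blue symbols for the 3 shNC libraries and red symbols for the 3 shACAT2 libraries. The dotted line marks 1 FPKM, and the genes span from HDAC10, at 0.414 FPKM on average in shNC, to NAT10, at 39.6 FPKM.

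In the comparison of shACAT2 with shNC, 32 of the 34 genes reached 1 FPKM on average in at least 1 of the groups and were tested. HDAC8 and HDAC10 were below this level, SIRT4 passed through the shACAT2 group alone, and HDAC11 and KAT6B passed through the shNC group alone. None of the 32 genes passed an adjusted p of 0.05 (limma, Benjamini-Hochberg over 13832 genes), against 5.10% of all genes tested (3.30% higher and 1.81% lower). Without the filter, in a fit that held all 34, the count was also 0 and the lowest limma adjusted p was 0.277. In that fit 209 of 41161 genes passed. At an unadjusted p of 0.05 the count was 5 of 32, or 15.6%, against 23.5% of all genes, and those genes were KAT6A, EP300, SIRT2, NAA50 and HAT1. limma-voom on the fragments recovered from the FPKM values gave 0 genes past an adjusted p of 0.05 and 6 at an unadjusted p of 0.05. Over all 13832 genes tested, the limma-voom counts were 1016 and 3386. By the study's rule, a log2 fold change beyond 1 with an unadjusted p under 0.05, the count was 0 against 1.50% of all genes. The rule was applied here to the limma values, not to the study's own fold changes and p-values. The 3 libraries of each group did not overlap for 7 of the 32 genes, or 21.9%, against 30.7% of all genes.

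With the replicate number as a block in the fit, 2 genes passed against 12.5% of all genes. They were KAT6A (limma adjusted p = 0.0286), which was lower in shACAT2, and NAA50 (limma adjusted p = 0.0400), which was higher. Once trends with gene length and GC content had been removed from each library, 3 genes passed against 15.9% of all genes. These were KAT6A (limma adjusted p = 0.0125), SIRT2 (limma adjusted p = 0.0183) and NAA50 (limma adjusted p = 0.0206). With both changes 5 genes passed against 21.1% of all genes, the additional ones being HDAC1 (limma adjusted p = 0.0445) and EP300 (limma adjusted p = 0.0458). In each case the share among the 32 genes lay under that of all genes.

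The log2 fold changes ran from −0.62 for KAT6A to 0.52 for SIRT2, on the log2(FPKM + 1) scale, which understates changes of low genes. Of the 32 genes, 14 had a positive and 18 a negative value, and the median was −0.08, beside 0.02 for all genes tested. The 95% interval of the log2 fold change lay within 0.5 of 0 for 20 genes and within 1 of 0 for 31, the exception being KAT6A. These intervals are per gene, and a gene that missed the threshold may still differ by any amount inside its interval.

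**Figure D2:**
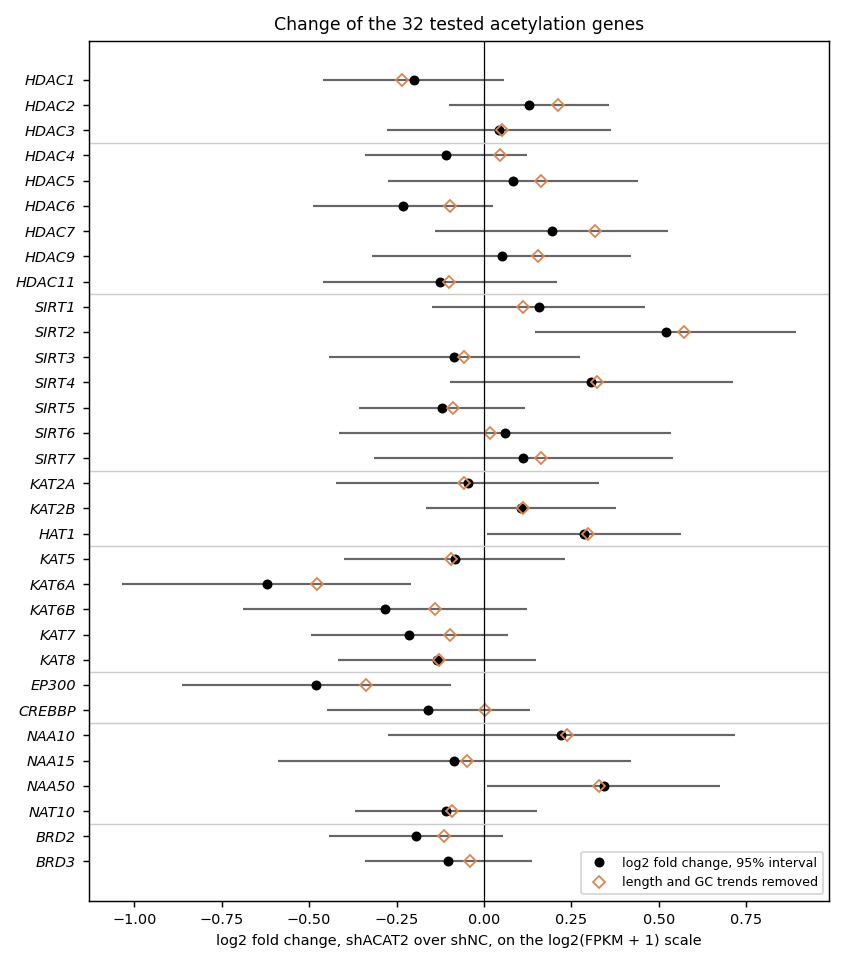
Log2 fold change of shACAT2 over shNC for the 32 acetylation genes tested, on the log2(FPKM + 1) scale, as filled points with 95% intervals from limma and as open diamonds after removal of length and GC trends. KAT6A at −0.62 and SIRT2 at 0.52 lie farthest from 0, and the intervals of 5 genes leave out 0.

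Among the class I deacetylases, which are nuclear and work inside corepressor complexes, HDAC1 was the most abundant. It was measured at 41.1, 37.5 and 35.5 FPKM in shNC-1, shNC-2 and shNC-3, and at 35.4, 30.6 and 32.9 FPKM in shACAT2-1, shACAT2-2 and shACAT2-3. The groups did not overlap, although shNC-3 and shACAT2-1 nearly met, and the log2 fold change was −0.20 with a 95% interval from −0.46 to 0.06 (limma adjusted p = 0.317). HDAC2, the partner and close paralog of HDAC1, was at 6.76 ± 0.574 FPKM in shNC and 7.47 ± 0.450 FPKM in shACAT2 (limma adjusted p = 0.477). HDAC3, the catalytic subunit of the NCOR complexes, was at 14.8 ± 1.65 and 15.3 ± 2.25 FPKM, and its log2 fold change of 0.04 turned to −0.0069 under library-size scaling. HDAC8, which deacetylates the cohesin subunit SMC3, was at 0.780 ± 0.0437 and 0.734 ± 0.0350 FPKM and was not tested.

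The class II and IV deacetylases were mostly lower in level. HDAC5, a signal-responsive class IIa enzyme that shuttles between nucleus and cytoplasm, was the highest at 10.4 ± 1.41 FPKM in shNC and 11.1 ± 1.98 FPKM in shACAT2. Its class IIa relatives HDAC4, HDAC7 and HDAC9 were at 2.99 ± 0.283, 7.48 ± 0.714 and 4.88 ± 0.710 FPKM in shNC, and at 2.70 ± 0.162, 8.76 ± 1.61 and 5.12 ± 1.03 FPKM in shACAT2. All 4 overlapped between the groups. HDAC6, the cytoplasmic tubulin deacetylase, was at 2.29, 1.91 and 2.05 FPKM in shNC-1, shNC-2 and shNC-3, and at 1.71, 1.70 and 1.46 FPKM in shACAT2-1, shACAT2-2 and shACAT2-3. It lay lower in every shACAT2 library, with a log2 fold change of −0.23 (95% interval from −0.49 to 0.03, limma adjusted p = 0.255), a value that was −0.10 without the length and GC trends. HDAC10, a polyamine deacetylase, rested on 26 to 43 fragments per library, and 55.8% of its exonic length is shared with MAPK12 on the same strand. HDAC11, the class IV enzyme, rested on 55 to 93 fragments and was at 1.02 ± 0.101 and 0.850 ± 0.180 FPKM.

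Of the 7 sirtuins, 5 had a positive log2 fold change, beside 52.3% of all genes tested, and none passed the test. SIRT4, 1 of the 5, entered the test only through its higher shACAT2 mean, so the filter set its direction. SIRT6 and SIRT7 turned to −0.13 and −0.064 without shACAT2-1. SIRT2, a cytoplasmic deacetylase of tubulin and other proteins (chr19:38878555-38899862, minus strand, GRCh38), was at 4.01, 4.28 and 3.36 FPKM in shNC-1, shNC-2 and shNC-3, and at 7.70, 5.48 and 5.03 FPKM in shACAT2-1, shACAT2-2 and shACAT2-3. Every shACAT2 library lay above every shNC library, with shACAT2-1 the highest. The mean was 1.56 times that of shNC, and the log2 fold change was 0.52 with a 95% interval from 0.15 to 0.89 (limma adjusted p = 0.110). Its limma adjusted p was 0.0539 with the replicate block and 0.0183 without the length and GC trends.

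SIRT1, the nuclear enzyme that deacetylates p53 and histones, was at 6.76 ± 0.745 FPKM in shNC and 7.68 ± 1.10 FPKM in shACAT2. The chromatin-bound SIRT6 and the nucleolar SIRT7 were at 9.49 ± 1.12 and 6.56 ± 0.557 FPKM in shNC, and at 10.2 ± 2.96 and 7.33 ± 2.04 FPKM in shACAT2. In shACAT2 both spread widely, since SIRT6 was at 13.1 FPKM in shACAT2-1 and 7.22 FPKM in shACAT2-3, on either side of all shNC libraries. Of the mitochondrial sirtuins, SIRT3, the main mitochondrial deacetylase, was at 5.01 ± 0.803 and 4.68 ± 0.890 FPKM, and SIRT5, which removes succinyl and malonyl groups, at 2.67 ± 0.151 and 2.38 ± 0.247 FPKM. SIRT4, the third of them, was at 0.840 ± 0.191 and 1.29 ± 0.371 FPKM on 14 to 30 fragments per library. For SIRT5, 16.1% of the exonic length is shared with AL441883.1 on the opposite strand.

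Among the GNAT acetyltransferases, KAT2A and KAT2B are alternative catalytic subunits of the SAGA and ATAC coactivator complexes. KAT2A was at 33.6 ± 2.63 FPKM in shNC and 32.9 ± 6.87 FPKM in shACAT2, and KAT2B at 1.53 ± 0.110 and 1.72 ± 0.206 FPKM. The shACAT2 values of KAT2A ran from 27.7 FPKM in shACAT2-3 to 40.7 FPKM in shACAT2-1 and spanned the shNC values. HAT1, which acetylates newly made histone H4 before its deposition (chr2:171922448-171983682, plus strand, GRCh38), was at 9.55, 12.5 and 11.5 FPKM in shNC-1, shNC-2 and shNC-3, and at 13.0, 14.3 and 14.1 FPKM in shACAT2-1, shACAT2-2 and shACAT2-3. The groups did not overlap, with shNC-2 and shACAT2-1 the nearest, and the log2 fold change was 0.29 with a 95% interval from 0.01 to 0.57 (limma adjusted p = 0.201).

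All 5 MYST acetyltransferases had a negative log2 fold change, whereas 52.3% of all genes tested had a positive one, and none of the 5 passed the test. KAT6B entered the test only through its higher shNC mean, so the filter set its direction. KAT5 turned to 0.033 without shACAT2-2. KAT6A, also called MOZ, acetylates histone H3 in complexes with BRPF scaffolds (chr8:41929479-42052026, minus strand, GRCh38). It was at 3.33, 4.28 and 4.22 FPKM in shNC-1, shNC-2 and shNC-3, and at 1.49, 2.68 and 2.57 FPKM in shACAT2-1, shACAT2-2 and shACAT2-3, on 547 to 1760 fragments per library. Every shACAT2 library lay below every shNC library, and library 1 was the lowest of its group in both. The mean in shACAT2 was 0.570 times that in shNC, and the log2 fold change was −0.62 with a 95% interval from −1.03 to −0.21 (limma adjusted p = 0.0939). It passed with the replicate block (limma adjusted p = 0.0286), and it also passed without the length and GC trends (log2 fold change −0.48, limma adjusted p = 0.0125).

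Its paralog KAT6B was at 1.11, 1.33 and 1.43 FPKM in shNC-1, shNC-2 and shNC-3, and at 0.527, 1.19 and 0.984 FPKM in shACAT2-1, shACAT2-2 and shACAT2-3. Here shACAT2-2 lay within the shNC range and shACAT2-1 far below it (log2 fold change −0.28, limma adjusted p = 0.371). KAT6A and KAT6B are 2 of the longest genes here, with 24175 and 32495 bases of exon. KAT7, the HBO1 enzyme of replication origins and histone H3, was at 6.40 ± 0.549 FPKM in shNC and 5.40 ± 0.812 FPKM in shACAT2. KAT8, the histone H4 lysine 16 enzyme, was at 20.6 ± 0.796 and 18.8 ± 2.63 FPKM. KAT5, the Tip60 enzyme of DNA repair and transcription, was at 4.02 ± 0.473 and 3.75 ± 0.651 FPKM, with 38.6% of its exonic length shared with RNASEH2C on the opposite strand.

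EP300 and CREBBP encode p300 and CBP, the paired coactivators that acetylate histone H3 at enhancers. EP300 (chr22:41091786-41180079, plus strand, GRCh38) was at 14.3, 15.5 and 15.4 FPKM in shNC-1, shNC-2 and shNC-3, and at 7.96, 11.8 and 12.3 FPKM in shACAT2-1, shACAT2-2 and shACAT2-3. The shNC libraries lay close together and above all shACAT2 libraries, among which shACAT2-1 was the lowest. The mean in shACAT2 was 0.710 times that in shNC, with a log2 fold change of −0.48 (95% interval from −0.87 to −0.09, limma adjusted p = 0.140). Without the length and GC trends the log2 fold change was −0.34. CREBBP was at 14.4 ± 0.380 FPKM in shNC and 12.8 ± 1.93 FPKM in shACAT2, and the groups overlapped through shACAT2-3. Its log2 fold change of −0.16 was 0.0036 without the length and GC trends. Together EP300 and CREBBP summed to 29.4 ± 0.424 FPKM in shNC and 23.5 ± 4.28 FPKM in shACAT2.

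Of the N-terminal enzymes, NAA10 is the catalytic and NAA15 the ribosome-binding subunit of the NatA complex, and NAA50 is an acetyltransferase bound to it. NAA50 (chr3:113716460-113746300, minus strand, GRCh38) was at 16.7, 20.9 and 19.4 FPKM in shNC-1, shNC-2 and shNC-3, and at 20.6, 27.2 and 25.5 FPKM in shACAT2-1, shACAT2-2 and shACAT2-3. The groups overlapped through shACAT2-1 and shNC-2, although each shACAT2 library lay above the shNC library of its own number. The log2 fold change was 0.34 with a 95% interval from 0.01 to 0.67 (limma adjusted p = 0.200), and with the replicate block it passed (limma adjusted p = 0.0400). NAA10 was at 7.82 ± 0.419 FPKM in shNC and 9.60 ± 3.22 FPKM in shACAT2, and NAA15 at 12.5 ± 2.50 and 11.8 ± 2.93 FPKM. NAT10, which acetylates cytidines of RNA, was at 39.6 ± 3.20 and 36.6 ± 2.53 FPKM (limma adjusted p = 0.602).

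The BET readers bind acetylated histones through paired bromodomains. BRD2 was at 39.5, 37.5 and 36.6 FPKM in shNC-1, shNC-2 and shNC-3, and at 36.1, 30.8 and 32.2 FPKM in shACAT2-1, shACAT2-2 and shACAT2-3. The groups did not overlap, with shNC-3 and shACAT2-1 close together, and the log2 fold change was −0.19 with a 95% interval from −0.44 to 0.05 (limma adjusted p = 0.314). BRD3 was at 8.84 ± 1.00 and 8.14 ± 0.141 FPKM, with 18.6% of its exonic length shared with BRD3OS on the opposite strand.

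The 3 shACAT2 libraries did not deviate alike. For 21 of the 32 genes tested, shACAT2-1 held the value farthest from the mean of the 3 shACAT2 libraries, against 4 genes for shACAT2-2 and 7 for shACAT2-3. KAT6A, EP300 and SIRT2 all had their most extreme value in shACAT2-1, at −0.98, −0.84 and 0.84 from the shNC mean on the log2(FPKM + 1) scale, whereas NAA50 was nearest to the shNC mean there, at 0.12. Across the 32 genes, this difference went with GC content with a Pearson r of 0.46 in shACAT2-1, −0.25 in shACAT2-2 and −0.52 in shACAT2-3. Across all genes with a GC value the corresponding r was 0.31, −0.09 and −0.33. With the logarithm of gene length, r across the 32 genes was −0.66, −0.11 and −0.17, while across all genes it was −0.03, 0.07 and −0.02. These correlations are across genes of the same libraries, which are not independent replicates. Among the 3456 genes tested that were richest in GC, the median difference was 0.27 in shACAT2-1 and −0.25 in shACAT2-3, and it was 0.12 in shNC-1. Over all genes tested, the median difference in shACAT2-1 did not run straight with length. It was 0.11 up to 2073 bases, 0.25 at 2074 to 4192 bases, 0.07 at 4193 to 6831 bases and −0.13 from 6832 bases. The r of −0.03 across all genes does not capture this course. From 6832 bases the median was −0.0035 in shACAT2-2 and −0.015 in shACAT2-3. The part of GC content and length in the values of single genes was tested only by removing both trends, as given above for each gene whose call it changed.

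**Figure D3:**
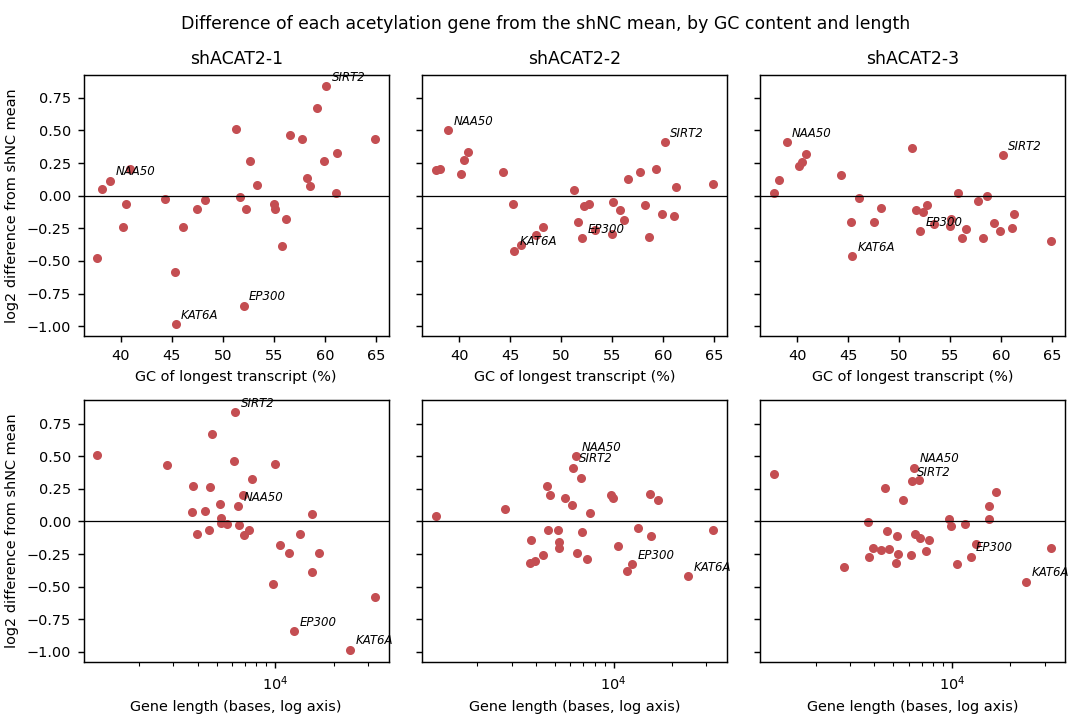
Difference of each of the 32 acetylation genes from the shNC mean, on the log2(FPKM + 1) scale, against GC content of the longest transcript (top) and gene length (bottom, log axis), with 1 panel per shACAT2 library. The points follow GC upward in shACAT2-1 (r = 0.46) and downward in shACAT2-3 (r = −0.52), and in shACAT2-1 the long genes KAT6A and EP300 are the lowest.

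Ratios of related genes within a library do not depend on scaling between libraries, and 10 pairs were compared. The length and GC trends of single libraries were not removed from these ratios. Paired genes can differ in length, as HDAC1 (3963 bases of exon) and HDAC2 (15461 bases) do, and the part of this was not tested. The ranges of the groups did not overlap for 4 of the 10 pairs, and each of these had p = 0.1 by the two-sided exact permutation test, the smallest that 3 against 3 allow (adjusted p = 0.25 over the 10 pairs by the same exact permutation test). No share was computed for other pairs of genes, and 30.7% of single genes did not overlap between the groups. EP300 over CREBBP was at 0.966, 1.09 and 1.10 in shNC-1, shNC-2 and shNC-3, and at 0.739, 0.895 and 0.846 in shACAT2-1, shACAT2-2 and shACAT2-3. In FPKM, EP300 was thus above CREBBP in 2 of 3 shNC libraries and below it in all 3 shACAT2 libraries. That crossing depends on their annotated lengths of 12500 and 15492 bases. In fragments EP300 was below CREBBP in every library, at 2727 and 3498 in shNC-1. HDAC1 over HDAC2 was at 6.73, 5.21 and 5.08 in shNC and at 5.02, 3.85 and 4.42 in shACAT2, with shNC-3 and shACAT2-1 nearly equal. KAT6A over KAT6B was at 3.00, 3.20 and 2.96 in shNC and at 2.83, 2.25 and 2.62 in shACAT2. HDAC4 over HDAC5 was at 0.274, 0.291 and 0.300 in shNC and at 0.205, 0.262 and 0.272 in shACAT2. The other 6 pairs overlapped between the groups.

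**Figure D4:**
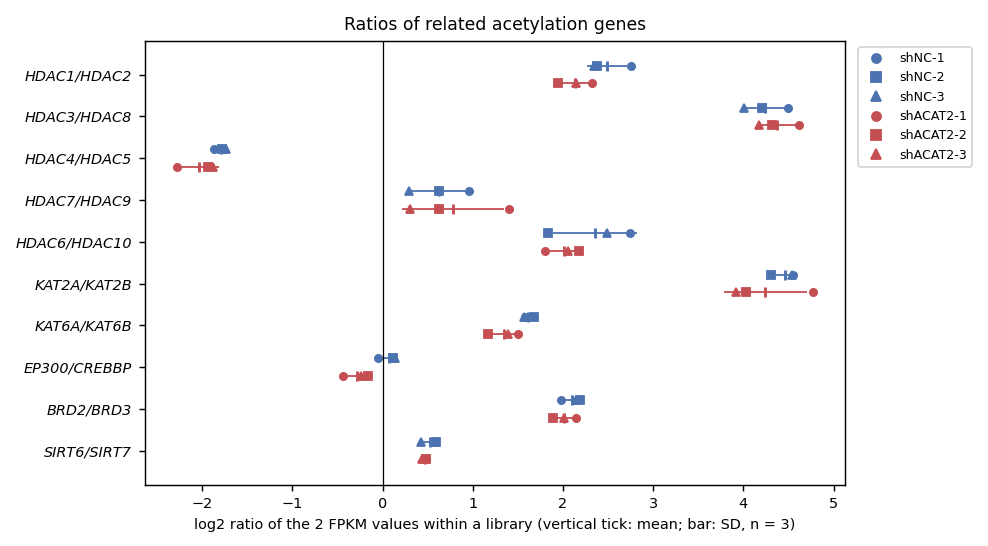
Log2 ratio of the FPKM values of 10 pairs of related genes within each library (blue, shNC; red, shACAT2; vertical ticks, means; bars, SD, n = 3). The libraries of the groups do not overlap for HDAC1/HDAC2, HDAC4/HDAC5, KAT6A/KAT6B and EP300/CREBBP.

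The acetylation enzymes work with partner subunits and draw on acetyl-CoA and NAD, so 173 further genes in 6 lists were examined in the same fit. Of the 158 tested, 9 passed an adjusted p of 0.05, or 5.70%, beside 5.10% of all genes. Among 58 subunits of acetyltransferase complexes, 6 passed (10.3%), with 2 higher and 4 lower, and the median log2 fold change of the list was 0.00. Among 41 corepressor subunits 2 passed, and among 13 other protein acetyltransferases 1 passed. None of 29 other bromodomain and YEATS readers passed, but 19 of them had a negative log2 fold change and their median was −0.21. None passed among 11 genes of acetyl-CoA supply (median 0.16) or 6 genes of NAD supply (median 0.06).

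Of the lower complex subunits, HCFC1, a host cell factor that joins several chromatin complexes, was at 51.7, 45.2 and 46.2 FPKM in shNC-1, shNC-2 and shNC-3, and at 30.8, 30.9 and 30.6 FPKM in shACAT2-1, shACAT2-2 and shACAT2-3 (log2 fold change −0.61, limma adjusted p = 0.0224). PHF20, a subunit of the NSL complex of KAT8 together with HCFC1, fell from 5.89 ± 0.312 to 3.85 ± 0.134 FPKM (log2 fold change −0.51, limma adjusted p = 0.0234). EP400, the ATPase of the Tip60 complex of KAT5, fell from 7.44 ± 0.499 to 4.46 ± 0.707 FPKM (log2 fold change −0.64, limma adjusted p = 0.0320). In each of these 3 genes the groups lay fully apart, but the genes were named for their small adjusted p on the same values. Of all genes tested, 30.7% did not overlap between the groups. The same limit holds for DR1 and NAA20 below, named by the same rule. The fourth lower subunit, named after its value was seen, was TRRAP, the scaffold that the Tip60 and SAGA complexes share. It fell from 12.4 ± 0.417 to 7.94 ± 1.17 FPKM (log2 fold change −0.59, limma adjusted p = 0.0385).

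The higher complex subunits were MORF4L1 and DR1. DR1, a subunit of the ATAC complex and of the repressor NC2, was at 7.24, 7.26 and 7.52 FPKM in shNC-1, shNC-2 and shNC-3, and at 10.4, 10.3 and 10.2 FPKM in shACAT2-1, shACAT2-2 and shACAT2-3 (log2 fold change 0.44, limma adjusted p = 0.0301). The groups were tight and apart, although without the length and GC trends its limma adjusted p was 0.108. MORF4L1, a chromodomain subunit of the Tip60 complex, was at 20.0 ± 0.353 FPKM in shNC and 36.8 ± 3.23 FPKM in shACAT2 (log2 fold change 0.84, limma adjusted p = 0.0104). Its value is uncertain, since its pseudogene MORF4L1P1 was itself listed at 26.4 to 28.6 FPKM in shNC and 40.8 to 48.0 FPKM in shACAT2, and reads of near-identical copies can be divided between them.

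In the corepressor list, the SIN3 subunit SUDS3 fell from 6.84 ± 0.440 to 4.52 ± 0.424 FPKM (log2 fold change −0.51, limma adjusted p = 0.0343), and ING2, which ties the SIN3 complex to methylated histone H3, rose from 9.98 ± 0.618 to 16.1 ± 2.84 FPKM (log2 fold change 0.63, limma adjusted p = 0.0475). The highest pseudogene value in any library was 2.98 FPKM for SUDS3 and 1.11 FPKM for EP400, and its part in the values of these genes was not tested. The catalytic subunit of the NatB N-terminal acetyltransferase, NAA20, was at 17.0, 15.0 and 16.1 FPKM in shNC-1, shNC-2 and shNC-3, and at 32.4, 26.5 and 27.6 FPKM in shACAT2-1, shACAT2-2 and shACAT2-3 (log2 fold change 0.81, limma adjusted p = 0.0146). Its shACAT2 libraries all lay above its shNC libraries. No gene of the 6 lists passed when any one of the shNC libraries or shACAT2-2 was left out. Without shACAT2-1 the counts for corepressor subunits, complex subunits and other acetyltransferases were 2, 6 and 1, and without shACAT2-3 they were 1, 4 and 1.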

How the data were processed

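The authors deposited 1 table of FPKM values, with gene lengths, for 58735 genes in 6 libraries made by LC-Bio. Lengths and coordinates equal those of GENCODE release 29 (GRCh38). The submitters' processing notes name HISAT2 2.0.5, featureCounts 1.5.0-p3 and DESeq2 1.20.0. The strand setting is not given in the sources used here. FPKM multiplied by length gave whole fragments for 100% of values (tolerance 0.02). These totals were 93.0% to 104.5% of the denominator of FPKM.

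Groups and replicate numbers came from sample titles. limma 3.58.1 with a trend (R 4.3.3) was fitted on log2(FPKM + 1) for the 13832 genes that averaged 1 FPKM or more in shNC or in shACAT2, and p was adjusted by Benjamini-Hochberg over all of them. Python 3.11.15, numpy 2.4.6 and pandas 2.3.3 did the rest. Both the fit and the trend removal were tried on simulated counts in which 200 genes were changed. The simulation put a GC trend into a single library and held no length trend. It therefore does not show how either performs on these libraries. The labels name biological replicates but not separate cultures, so p-values measure only the spread between these libraries.

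The members and lists were chosen with earlier results of these data known. Named were all members, ACAT2, and per list and direction up to 3 called genes with the smallest adjusted p. TRRAP, TRIM33, CECR2 and NCOR1 were chosen after their values were seen. Of 173 list genes 172 were found. Libraries with the same replicate number deviated together (correlations 0.445, 0.126 and 0.171 for libraries 1, 2 and 3), which meets the limit of 0.1 set for taking the numbers as pairs, although shNC-2 with shACAT2-3 gave 0.198 and shNC-3 with shACAT2-2 gave 0.141. The values reported are nevertheless from the fit without the block, and the blocked value is given where it changes a call. Alternatives were library-size and upper-quartile scaling, the replicate block, limma-voom, a pseudocount of 0.1, no filter, a filter of 10 fragments in each library, shNC-2 and shNC-3 averaged, and each library left out. Removal of lowess trends on length and GC content, alone and with the block, was added after the data were seen.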

Additional observations from a re-analysis of the deposited data

How the results depend on the processing

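The count of acetylation genes past the threshold was 0 in 15 of 18 settings. With the replicate block it was 2 (1 higher, 1 lower), without length and GC trends 3 (2 higher, 1 lower), and with both 5 (2 higher, 3 lower). With any 1 library left out it was 0, and 59 to 849 of all 13832 genes tested passed in those fits. Few genes of any kind passed in some settings, as in 84 of 13832 after averaging shNC-2 with shNC-3. Without the filter, 209 of 41161 passed. In such settings a count of 0 among the acetylation genes says little. Library-size scaling and limma-voom also gave 0 acetylation genes, where 884 and 1016 of 13832 genes passed. Added to the fit with the trends in place, the block changed the call of no acetylation gene other than KAT6A and NAA50. Added to the fit without the trends, it brought in HDAC1 and EP300. The median log2 fold change moved from −0.08 to −0.018 without the trends (with or without the block), and lay between −0.113 and −0.032 with 1 library left out. The log2 fold change of ACAT2 was −1.07 to −0.94 with 1 library left out.

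The corepressor count of 2 became 0 without the filter, 5 with the block, 0 with shNC-2 and shNC-3 averaged, 6 without the trends, 11 without the trends and with the block, and 0 to 2 with 1 library left out. The complex subunit count of 6 became 0 with shNC-2 and shNC-3 averaged, 2 without the filter, 11 without the trends and with the block, and 0 to 6 with 1 library left out. For bromodomain and YEATS readers, 0 became 1 at 10 fragments or more in every library, 6 with the block, 2 by limma-voom, 6 without the trends and 12 without the trends and with the block. For the other acetyltransferases, 1 became 0 with shNC-2 and shNC-3 averaged, 2 without the trends and with the block, and 0 to 1 with 1 library left out. For acetyl-CoA supply, 0 became 1 at 10 fragments or more, with the block, and without the trends and with the block. The causes were not tested. With the filter on mean FPKM, 41 corepressor subunits, 58 complex subunits, 29 readers, 13 other acetyltransferases and 11 acetyl-CoA supply genes were tested. Over all genes the count of 706 of 13832 (5.10%) became 209 of 41161 without the filter. It was 1727 (12.5%) with the block, 2206 (15.9%) without the trends, and 2921 (21.1%) without the trends and with the block. After averaging shNC-2 with shNC-3 it was 84, and with 1 library left out 59 to 849. Whether any list rose more than all genes did was not tested.

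The sign held in every setting for 20 acetylation genes and turned for 12, none of which passed in any setting. Library-size scaling turned HDAC3 to −0.0069, and without the trends HDAC4 was 0.046 and CREBBP 0.0036, with or without the block. With 1 library left out, log2 fold changes ran from −0.068 to 0.12 for HDAC3, −0.038 to 0.20 for HDAC5, −0.050 to 0.20 for HDAC9, −0.19 to 0.034 for SIRT3, −0.13 to 0.26 for SIRT6, −0.064 to 0.30 for SIRT7, −0.21 to 0.065 for KAT2A, −0.16 to 0.033 for KAT5, −0.0029 to 0.44 for NAA10 and −0.25 to 0.11 for NAA15. Depth limits SIRT4, HDAC10 and HDAC11 most, which had 14 to 93 fragments per library.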

Other observations

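Among the other bromodomain proteins, TRIM33 and CECR2 are given here after their values were seen. TRIM33, a chromatin reader and ubiquitin ligase of the TGF-beta pathway, was at 5.96, 8.33 and 8.28 FPKM in shNC-1, shNC-2 and shNC-3, and at 3.34, 5.04 and 4.96 FPKM in shACAT2-1, shACAT2-2 and shACAT2-3. All shACAT2 libraries lay below all shNC libraries (log2 fold change −0.65), and the limma adjusted p was 0.0854, or 0.0171 with the replicate block and 0.00254 without length and GC trends. CECR2, a bromodomain subunit of a chromatin remodelling complex, was at 2.00 ± 0.152 FPKM in shNC and 1.02 ± 0.207 FPKM in shACAT2 (SD, n = 3; log2 fold change −0.57), with a limma adjusted p of 0.0515, or 0.0463 with the block and 0.0244 without the trends. In the corepressor list, NCOR1, the scaffold that activates HDAC3 and likewise chosen after its values were seen, was at 14.2 ± 1.19 and 9.79 ± 2.23 FPKM (log2 fold change −0.51), with a limma adjusted p of 0.133, or 0.0439 with the block and 0.0216 without the trends.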
